A study of Mus musculus with 6 samples.

Results

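The genes described here encode 3 families of conjugating and ester-splitting enzymes in mouse intestinal epithelium: the UDP-glucuronosyltransferases (UGT), the cytosolic sulfotransferases (SULT) and the carboxylesterases (CES). Members were the protein-coding rows of the count table whose symbols begin with Ugt1a, Ugt2a, Ugt2b or Ugt3a and a number, with Sult and a digit, or with Ces1 to Ces5, and which had at least 1 count summed over the 6 libraries. The table has 55450 rows, of which 61 protein-coding symbols matched and 41 had a count: 16 of 21 UGT genes, 9 of 21 SULT genes and 16 of 19 CES genes. Of these 41, 29 had enough counts for the test (9 UGT, 6 SULT and 14 CES), and 12 did not.

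The study compared scraped small-intestinal epithelium of 3 control and 3 double-knockout mice by polyA RNA sequencing, 1 library per mouse. All 6 mice carried loxP-flanked alleles of both targeted genes, of which Ncor1 is described here; it encodes NCoR1, a corepressor that keeps target genes of unliganded nuclear receptors silent. The knockout mice also carried Vil1-Cre-ERT2, a Cre recombinase driven by the villin 1 promoter in intestinal epithelial cells and activated by tamoxifen, and the control mice lacked it. Per the labels, tamoxifen was injected into the peritoneum at 15 mg per 100 g of body weight for 5 days at 8 to 9 weeks of age, and the protocol names no group as untreated. Only the knockouts carried the transgene, so the deletion and the transgene cannot be told apart, and the labels do not give the section of small intestine each library came from. Libraries are named by genotype and animal number: controls 482, 483 and 486 and knockouts 423, 476 and 477. Total counts ran from 23476031 to 46835165, at which 3 counts correspond to between 0.0586 and 0.173 CPM (counts scaled to a common library size and then by TMM, the trimmed mean of M values). Ncor1 itself stood at 99.3 to 140 CPM in the controls and at 22.5 to 36.4 CPM in the knockouts.

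UGT enzymes sit in the endoplasmic reticulum and link glucuronic acid, taken from UDP-glucuronic acid, to bilirubin, steroids, bile acids and drugs, and SULT enzymes in the cytosol transfer a sulfate group from PAPS (3′-phosphoadenosine 5′-phosphosulfate) to phenols, steroids and thyroid hormones. CES enzymes are serine hydrolases of the endoplasmic reticulum that split ester and amide bonds in drugs and in acylglycerols. In the intestine these enzymes form part of first-pass metabolism, and many of their genes are known targets of nuclear receptors such as PXR, CAR and PPARα. The genes lie in tandem clusters, in which neighbouring copies can have different tissues, inducers and substrates.

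The members moved mostly upward in the knockout. Of the 29 tested, 13 were called higher and 4 lower, and 12 did not pass. A call is a Benjamini-Hochberg adjusted p below 0.05 in edgeR's quasi-likelihood fit of all 15028 tested genes. Across all genes tested 17.3% were higher, 18.3% lower and 35.6% changed in either direction. The median log2 fold change, knockout minus control, was 0.98 over the tested members and -0.06 over all genes. Control and knockout libraries were fully separated in 20 of the 29 members and in 50.3% of all genes. Changes of at least 4-fold upward were held by 9 members, against 3.29% of all genes. Downward they were held by 2, for which the share of all genes was not computed. By family, 5 UGT genes were higher and 1 lower of 9, 3 SULT genes higher and 1 lower of 6, and 5 CES genes higher and 2 lower of 14. When libraries were scaled by their total counts only (median of all genes -0.49), 5 UGT genes were higher and 1 lower, 3 SULT genes higher and 2 lower, and 4 CES genes higher and 4 lower, beside 1133 higher and 4554 lower of all genes. The members together took 0.640% to 0.807% of a control library's counts and 1.53% to 1.75% of a knockout library's.

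**Figure D1:**
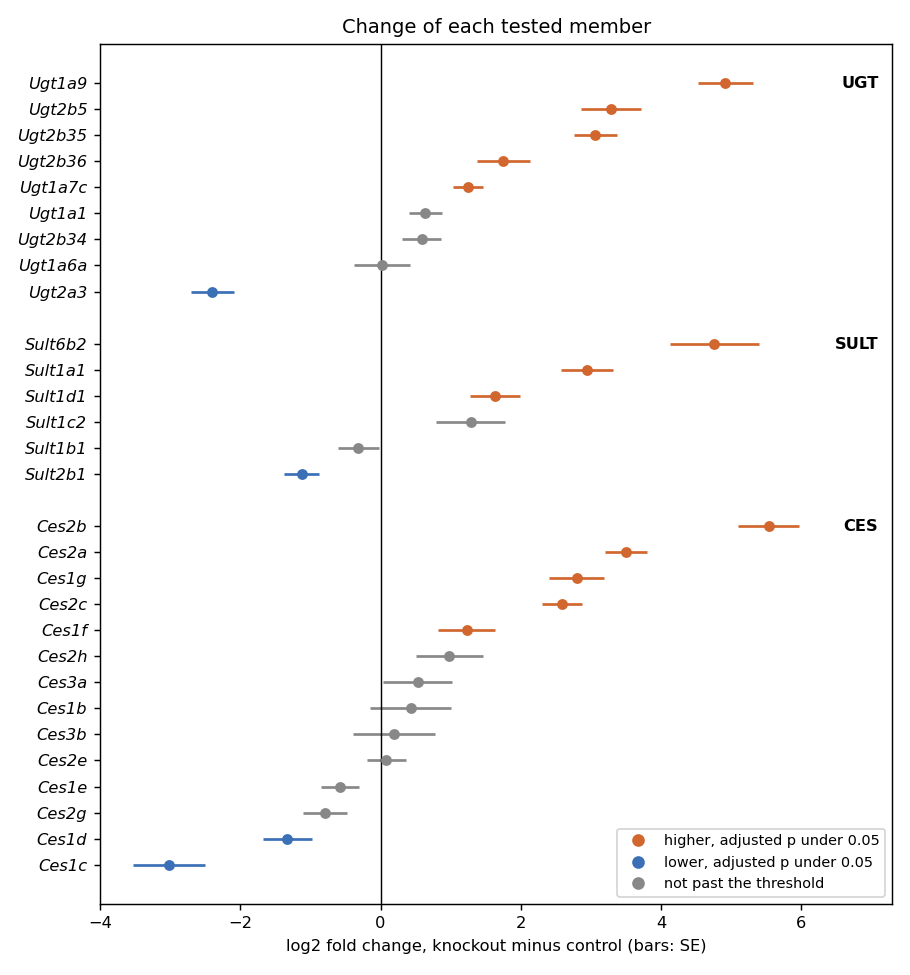
Log2 fold change (x axis, knockout minus control) of each of the 29 tested members by family, with bars of 1 SE; orange marks members higher and blue members lower at an adjusted p under 0.05, and grey those that did not pass. The highest in each family were Ugt1a9, Sult6b2 and Ces2b, and the lowest were Ugt2a3, Sult2b1 and Ces1c.

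Promoters are printed for the 8 called members with the smallest adjusted p, in that order, so that genes that rose can be read beside Ugt2a3, which fell; Ces2b has none in the table used. Each runs from 250 bases before to 50 bases after the annotated start (RefSeq, GRCm38.p6). They lie at chr1:88070529-88070828, chr8:104733753-104734052, chr5:87000610-87000909 and chr8:104846818-104847117 on the plus strand and at chr7:126676369-126676668, chr5:87337146-87337445 and chr5:87140291-87140590 on the minus strand. Capitals mark the nuclear receptor hexamer AGGTCA or AGTTCA on either strand.
Ugt1a9: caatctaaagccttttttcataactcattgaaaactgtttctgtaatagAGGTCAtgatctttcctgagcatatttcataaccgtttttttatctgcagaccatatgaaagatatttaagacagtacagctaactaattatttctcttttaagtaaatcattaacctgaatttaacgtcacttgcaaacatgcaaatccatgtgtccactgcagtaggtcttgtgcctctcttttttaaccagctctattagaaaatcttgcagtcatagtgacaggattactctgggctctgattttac
Ces2a: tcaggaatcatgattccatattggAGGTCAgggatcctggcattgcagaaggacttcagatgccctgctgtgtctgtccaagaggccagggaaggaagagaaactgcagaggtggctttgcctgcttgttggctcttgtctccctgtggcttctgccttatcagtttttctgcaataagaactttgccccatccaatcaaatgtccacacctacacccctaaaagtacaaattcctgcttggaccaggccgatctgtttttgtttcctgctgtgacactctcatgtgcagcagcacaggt
Ugt2b35: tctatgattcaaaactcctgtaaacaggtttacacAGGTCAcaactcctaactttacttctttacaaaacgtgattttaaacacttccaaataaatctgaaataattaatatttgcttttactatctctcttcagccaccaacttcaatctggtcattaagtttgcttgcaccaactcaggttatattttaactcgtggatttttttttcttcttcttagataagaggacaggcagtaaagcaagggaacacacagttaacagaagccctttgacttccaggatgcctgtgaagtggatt
Ces2c: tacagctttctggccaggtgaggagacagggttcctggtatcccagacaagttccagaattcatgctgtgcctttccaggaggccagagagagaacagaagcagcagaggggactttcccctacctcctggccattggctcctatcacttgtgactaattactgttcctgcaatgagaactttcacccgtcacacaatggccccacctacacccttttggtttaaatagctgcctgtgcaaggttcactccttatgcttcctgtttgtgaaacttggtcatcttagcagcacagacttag
Sult1a1: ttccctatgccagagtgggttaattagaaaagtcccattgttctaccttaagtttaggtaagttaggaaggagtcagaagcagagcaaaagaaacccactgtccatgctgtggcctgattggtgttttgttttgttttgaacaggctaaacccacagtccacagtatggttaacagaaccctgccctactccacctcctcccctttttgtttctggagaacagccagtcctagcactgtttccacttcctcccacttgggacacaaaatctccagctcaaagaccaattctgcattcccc
Ugt2a3: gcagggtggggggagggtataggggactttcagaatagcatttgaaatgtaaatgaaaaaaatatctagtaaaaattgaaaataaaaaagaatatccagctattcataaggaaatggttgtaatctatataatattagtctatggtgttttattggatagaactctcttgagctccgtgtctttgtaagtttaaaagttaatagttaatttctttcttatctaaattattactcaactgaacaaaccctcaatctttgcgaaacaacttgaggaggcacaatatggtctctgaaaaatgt
Ugt2b5: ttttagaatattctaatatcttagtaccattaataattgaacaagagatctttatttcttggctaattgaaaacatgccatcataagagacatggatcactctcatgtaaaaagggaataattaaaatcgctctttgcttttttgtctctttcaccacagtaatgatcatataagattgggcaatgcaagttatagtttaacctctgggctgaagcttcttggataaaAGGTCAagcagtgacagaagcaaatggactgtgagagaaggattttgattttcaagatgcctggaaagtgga

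Ugt1a9, Ces2a, Ugt2b35 and Ugt2b5 hold the hexamer 201, 226, 215 and 22 bases before the start. The promoters of Ces2c and Sult1a1, which rose as well, and of Ugt2a3 do not hold it in this window. RefSeq promoters were found for 35 of the 41 members (38 promoters; 4 tested members, Ces2b among them, had none). Either form of the hexamer on either strand was in 17 of 38 member promoters (44.7%) and 27.7% of all 32851 promoters. It was in 8 of 11 promoters of members that rose (72.7%) and 0 of 4 promoters, from 3 genes, of members that fell. It was in 5 of 13 of tested members that did not pass (38.5%) and 4 of 10 of untested members (40%). The 13 include overlapping promoters of Ces1b that hold the same copy of the hexamer. The other 4 risers with it were Sult1d1, Sult6b2, Ugt1a7c and Ugt2b36, and the 3 without it were Ces1g, Ces2c and Sult1a1. Ugt2b36 and Ugt2b5 share a run of 24 bases around it, gataaaAGGTCAagcagtgacaga, and 65.7% of their promoter bases align as identical, against a median of 53.3% for pairs within a family and 52.3% for pairs of different families. The promoter of Ugt2b38, which had 3 counts in all, holds the same hexamer 25 bases before the start and is 87.0% identical to that of Ugt2b5. The core GCGTG of the xenobiotic response element, searched on both strands, was in 7 of 38 member promoters (18.4%) and 32.4% of all. Among promoters of members that rose it was in 1 of 11. Of those that fell it was in 2 of 4, each a promoter of the same gene, Sult2b1. It was in 2 of 13 of tested members that did not pass and 2 of 10 of untested members. The antioxidant response core TGACNNNGC was in 0 of 38 and 12.4% of all. Direct repeats DR1, DR3 and DR4 of the exact hexamers were in none of the member promoters and in 0.0822%, 0.0122% and 0.0274% of all. A match is a match of letters and not a bound site.

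Among the carboxylesterases Ces2a, Ces2b and Ces2c rose, and Ces2a held the largest share of the family's transcripts in the knockout. Ces2a (ENSMUSG00000055730, mm10 chr8:104734003-104741634, plus strand), whose product hydrolyses drugs and glycerides in gut and liver, was at 829, 583 and 804 CPM in the controls (482, 483 and 486, the order used throughout) and reached 7169, 7869 and 10088 CPM in the knockouts (423, 476 and 477). Every knockout library was far above every control, and the rise was 11.3-fold (log2 fold change 3.50, SE 0.30, adjusted p = 8.3e-05). Its share of all counts in a library went from at most 0.106% to at least 0.685%.

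Ces2b (ENSMUSG00000050097, mm10 chr8:104831572-104840093) had the largest fold change of the members. It stood at 9.25, 3.04 and 6.25 CPM in the controls and at 257, 239 and 371 CPM in the knockouts, 46.4-fold higher (log2 fold change 5.54, SE 0.43, adjusted p = 5.0e-05). Ces2c (ENSMUSG00000061825, mm10 chr8:104847068-104854483), whose product is known as a triglyceride hydrolase of the enterocyte, stood at 354, 313 and 450 CPM in the controls and at 1828, 2032 and 2862 CPM in the knockouts. Its groups lay far apart as well (log2 fold change 2.59, SE 0.29, adjusted p = 0.00028).

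The next gene of the Ces2 cluster, Ces2e, showed no such difference. Ces2e (ENSMUSG00000031886, mm10 chr8:104926260-104934672) stood at 1418, 2005 and 2346 CPM in the controls and at 1895, 1720 and 2480 CPM in the knockouts. These ranges overlapped almost entirely (log2 fold change 0.08, SE 0.28, adjusted p = 0.84), and the sign turned to -0.36 with library-size scaling. Ces2g did not pass (log2 fold change -0.79, SE 0.31, adjusted p = 0.070), with knockout 423 at 44.0 CPM inside the control range and knockouts 476 and 477 at 21.9 and 23.3 CPM below it. Without knockout 423 Ces2g passed as lower (-1.17, adjusted p = 0.021). It also passed as lower without a count filter (-0.82, adjusted p = 0.0064) and with library-size scaling (-1.18, adjusted p = 0.030). Ces2h (0.98, adjusted p = 0.13) ran from 0.312 to 1.33 CPM over the 6 libraries, and Ces2f, with 25 control and 5 knockout counts, had too few for the test.

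The Ces1 genes divided in direction. Ces1g (mm10 chr8:93302369-93337308, minus strand), an enzyme of liver and gut known for effects on lipid output, stood at 3.16, 9.69 and 5.04 CPM in the controls and at 43.9, 30.6 and 49.2 CPM in the knockouts (log2 fold change 2.80, SE 0.39, adjusted p = 0.0010). Ces1f (ENSMUSG00000031725, mm10 chr8:93256236-93279747, minus strand), the most abundant Ces1 gene per kilobase of exon, stood at 51.8, 189 and 98.0 CPM in the controls and at 292, 217 and 285 CPM in the knockouts. Control 483 came close to knockout 476, and the call was weak (log2 fold change 1.23, SE 0.40, adjusted p = 0.040). It was lost without control 482, control 486, or any 1 of the 3 knockouts, with adjusted p between 0.055 and 0.11, and at 0.82 with library-size scaling (adjusted p = 0.12).

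Lower in the knockout were Ces1c and Ces1d, both at low levels. Ces1c, which encodes a carboxylesterase of mouse plasma, stood at 3.56, 1.49 and 2.48 CPM in the controls and at 0.289, 0.432 and 0.173 CPM in the knockouts (log2 fold change -3.02, SE 0.51, adjusted p = 0.0025). Ces1d, a triacylglycerol hydrolase, stood at 9.67, 10.3 and 9.35 CPM in the controls and at 5.75, 2.09 and 3.80 CPM in the knockouts (-1.33, SE 0.35, adjusted p = 0.017). Neither gene overlapped between genotypes, though Ces1d did not pass a test against a 1.5-fold change (adjusted p = 0.060). Ces1e did not pass (-0.58, adjusted p = 0.12). It passed as lower with library-size scaling (-0.99, adjusted p = 0.028) and with the exon length and GC trend removed (-0.71, adjusted p = 0.039). Ces1b (0.43, adjusted p = 0.59) did not pass. Neither did the Ces3 genes, of which Ces3a (mm10 chr8:105048601-105058413), the more abundant per kilobase, stood at 1.16, 2.47 and 0.781 CPM in the controls and at 1.41, 2.86 and 2.01 CPM in the knockouts (0.53, adjusted p = 0.42; Ces3b 0.19). About 15.1% of the 75-base words of Ces3a are shared with Ces3b, so their split is less certain than that of the Ces2 genes, at 1.39% or less.

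**Figure D2:**
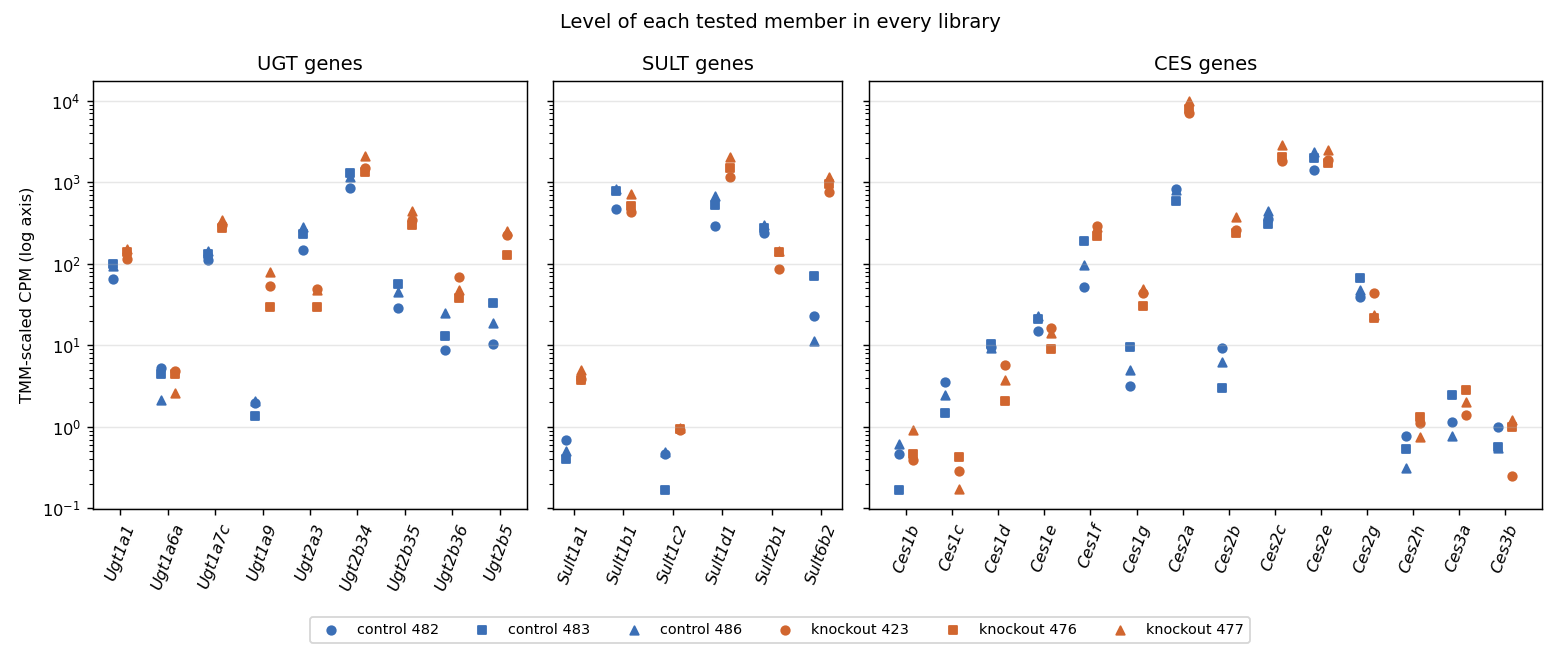
TMM-scaled CPM (y axis, log scale) of each tested member in each of the 6 libraries, 1 symbol per mouse, controls blue and knockouts orange. Ces2a, Ces2b, Ugt1a9 and Sult6b2 show a wide gap between genotypes, while Ces2e and Ugt1a6a overlap.

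The Ugt2 genes showed 3 increases and 1 decrease. Ugt2b35 (ENSMUSG00000035811, mm10 chr5:87000860-87013275) stood at 29.0, 56.5 and 45.0 CPM in the controls and at 343, 298 and 451 CPM in the knockouts, 8.37-fold higher (log2 fold change 3.07, SE 0.30, adjusted p = 0.00017). Ugt2b5 (ENSMUSG00000054630, mm10 chr5:87124960-87140318, minus strand), an enzyme of steroid and drug glucuronidation, stood at 10.5, 33.2 and 19.0 CPM in the controls and at 229, 130 and 251 CPM in the knockouts. The lowest knockout was well above the highest control, control 483 (log2 fold change 3.28, SE 0.43, adjusted p = 0.00072). Some 30.4% of the 75-base words of Ugt2b5 are shared with Ugt2b38. Ugt2b36 stood at 8.66, 12.9 and 24.7 CPM in the controls and at 69.6, 38.5 and 47.8 CPM in the knockouts (1.75, SE 0.38, adjusted p = 0.0075).

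Ugt2a3 moved the other way. Ugt2a3 (ENSMUSG00000035780, mm10 chr5:87324972-87337195, minus strand), whose human counterpart is known to glucuronidate bile acids, stood at 148, 234 and 283 CPM in the controls and at 49.0, 29.8 and 47.5 CPM in the knockouts. Every knockout was below every control, a 5.27-fold fall (log2 fold change -2.40, SE 0.30, adjusted p = 0.00059). Ugt2b34 (ENSMUSG00000029260, mm10 chr5:86889767-86906937, minus strand) was the most abundant UGT gene per kilobase of all exons. It stood at 846, 1293 and 1149 CPM in the controls and at 1509, 1342 and 2081 CPM in the knockouts. The groups did not overlap, but control 483 and knockout 476 nearly met and the gene did not pass (0.58, SE 0.27, adjusted p = 0.12).

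At the Ugt1a locus each gene has its own first exon and joins it to downstream exons that all of them share. Ugt1a9 (ENSMUSG00000090175, mm10 chr1:88070800-88218997, plus strand), a transferase for phenols, stood at 1.96, 1.35 and 2.05 CPM in the controls and at 53.2, 29.9 and 80.6 CPM in the knockouts. All knockouts were above all controls, 30.2-fold on the fitted scale (log2 fold change 4.91, SE 0.39, adjusted p = 5.5e-05). Ugt1a7c (ENSMUSG00000090124, mm10 chr1:88095062-88220002) stood at 112, 132 and 145 CPM in the controls and at 300, 277 and 345 CPM in the knockouts (1.25, SE 0.21, adjusted p = 0.0026). Ugt1a1 (ENSMUSG00000089960, mm10 chr1:88211959-88218997), the bilirubin transferase, stood at 66.0, 101 and 93.7 CPM in the controls and at 114, 140 and 153 CPM in the knockouts. Its groups did not overlap, but it fell just short of the threshold (0.64, SE 0.23, adjusted p = 0.053), and passed with upper-quartile scaling, a stricter count filter, DESeq2 or limma-voom (adjusted p from 0.031 to 0.048). Ugt1a6a was at 5.25, 4.42 and 2.11 CPM in the controls and at 4.89, 4.42 and 2.59 CPM in the knockouts, the same range in both (0.02, adjusted p = 0.97).

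How reads in the shared Ugt1a exons were assigned is not given in the sources used here. Ugt1a10 has the same shared exons and 0 counts in every library, so those reads were not assigned to every gene of the locus. Per kilobase of all exons Ugt1a1 and Ugt1a7c stood at 39.0 and 30.7 CPM in the controls and at 60.9 and 72.9 CPM in the knockouts. Per kilobase of exon not shared with any other gene they stood at 226 and 67.7 CPM in the controls and at 352 and 161 CPM in the knockouts, so which of them is more abundant in the knockout depends on the length used. Only 385 bases of Ugt1a1 are unshared, partly because Gm20528, on the opposite strand with 573 counts, overlaps it, and the strand setting is not given either. Summed over the locus the Ugt1a genes rose (log2 fold change 1.18, SE 0.23, adjusted p = 0.0046).

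The sulfotransferases included 1 gene, Sult6b2, that went from a low to a high level. Sult6b2 (ENSMUSG00000048473, mm10 chr6:142785204-142804502, minus strand), a family member whose substrates are little described, stood at 23.1, 71.5 and 11.4 CPM in the controls and at 754, 961 and 1152 CPM in the knockouts. The controls differed among themselves, with control 483 highest, but all lay far below the knockouts (27.1-fold, log2 fold change 4.76, SE 0.63, adjusted p = 0.00077). Sult1a1 (ENSMUSG00000030711, mm10 chr7:126672865-126676432, minus strand), a phenol sulfotransferase, rose 7.66-fold at a low level, from 0.696, 0.405 and 0.508 CPM in the controls to 3.84, 3.76 and 4.95 CPM in the knockouts (log2 fold change 2.94, SE 0.37, adjusted p = 0.00058). Its exons overlap Sgf29 on the opposite strand, a gene with 678 counts over the 6 libraries.

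The 2 most abundant SULT genes of the controls per kilobase went different ways. Sult1d1 (ENSMUSG00000029273, mm10 chr5:87554645-87569027, minus strand), which acts on catecholamines and other phenols, stood at 295, 528 and 683 CPM in the controls and at 1154, 1492 and 2022 CPM in the knockouts (log2 fold change 1.63, SE 0.35, adjusted p = 0.0074). Its neighbour Sult1b1, which sulfates thyroid hormones, stood at 475, 775 and 826 CPM in the controls and at 429, 515 and 722 CPM in the knockouts, with overlapping groups (-0.32, SE 0.29, adjusted p = 0.42). It passed as lower only with library-size scaling (-0.77, adjusted p = 0.021), among the alternatives run. Sult2b1 (mm10 chr7:45729983-45784669), the cholesterol and pregnenolone sulfotransferase, fell from 237, 276 and 298 CPM to 86.5, 140 and 145 CPM (-1.13, SE 0.25, adjusted p = 0.0086). Sult1c2 was low in all libraries, at 0.169 to 0.488 CPM in the controls and 0.905 to 0.978 CPM in the knockouts; the groups did not overlap and it did not pass (1.28, adjusted p = 0.064), though it did with limma-trend on the deposited log2 values (0.93, adjusted p = 0.042).

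The 12 members below the count filter had between 1 and 30 counts over the 6 libraries. Summed over the controls and over the knockouts, Ugt1a8 had 3 and 19 counts, Ugt1a6b had 1 and 15, Ugt1a2 had 0 and 5, Ugt2b38 had 0 and 3, and Ugt2b1 had 15 and 3. Fitted without a filter, Ugt1a8 and Ugt1a6b passed as higher (adjusted p = 0.030 and 0.014). Sult4a1 (25 counts), Ugt1a5 (4), Sult6b1 (3) and Sult5a1 (2) had few counts in either genotype. At the edge of the rule were Ugt2b37 and Ces1a with 1 count each, and just outside it the 20 matching genes with none, which included every Ugt3a, Sult2a and Sult3a gene, Sult1e1, Ces4a and Ces5a.

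Per kilobase of all exons the most abundant gene changed in the CES and SULT families and stayed Ugt2b34 in the UGT family. Levels in this comparison are TMM-scaled CPM per kilobase of exon, as a share of the family's sum in a library (mean ± SD, n = 3). In the CES family Ces2e held 56.2% ± 6.45 in the controls and 13.8% ± 1.06 in the knockouts, and Ces2a 25.4% ± 6.51 and 64.9% ± 1.37. Per kilobase Ces2a was 0.333 to 0.669 of Ces2e in the controls and 4.33 to 5.24 times Ces2e in the knockouts. Ces2c held 12.9% and 17.7%, and Ces2b, despite the largest fold change, at most 1.63% in any library.

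Among SULT genes Sult1b1 led in the controls with 46.4% ± 1.00, followed by Sult1d1 at 37.1% ± 4.72. In the knockouts Sult1d1 held 48.1% ± 1.39 and Sult6b2 34.0% ± 1.58, up from 3.10% ± 2.37, while Sult1b1 held 15.2% and Sult2b1 2.40%. The ratio of Sult6b2 to Sult2b1 per kilobase went from at most 0.474 in a control to at least 12.5 in a knockout. In the UGT family Ugt2b34 remained the first, at 55.2% ± 2.91 and 47.3% ± 2.17. Behind it Ugt2a3 held 22.4% ± 3.10 in the controls and 2.47% ± 0.430 in the knockouts, where Ugt2b35 (13.5%) and Ugt2b5 (13.4%) came next. The ratio of Ugt2b5 to Ugt2a3 ran from 0.0766 to 0.162 in the controls and from 4.98 to 6.02 in the knockouts. These UGT shares use all exons, including those the Ugt1a genes have in common, and the order depends on that. Per kilobase of unshared exon Ugt2b34 held 37.0% ± 1.64 in the controls and 31.0% ± 1.64 in the knockouts. Ugt1a1 came second on the means, at 32.8% ± 0.639 and 29.1% ± 4.81. In knockout 476 Ugt1a1 was above Ugt2b34 by this measure. Ugt2a3 then held 15.1% in the controls and 1.63% in the knockouts, where Ugt1a7c (13.3%) was above Ugt2b5 (8.87%) and Ugt2b35 (8.84%).

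**Figure D3:**
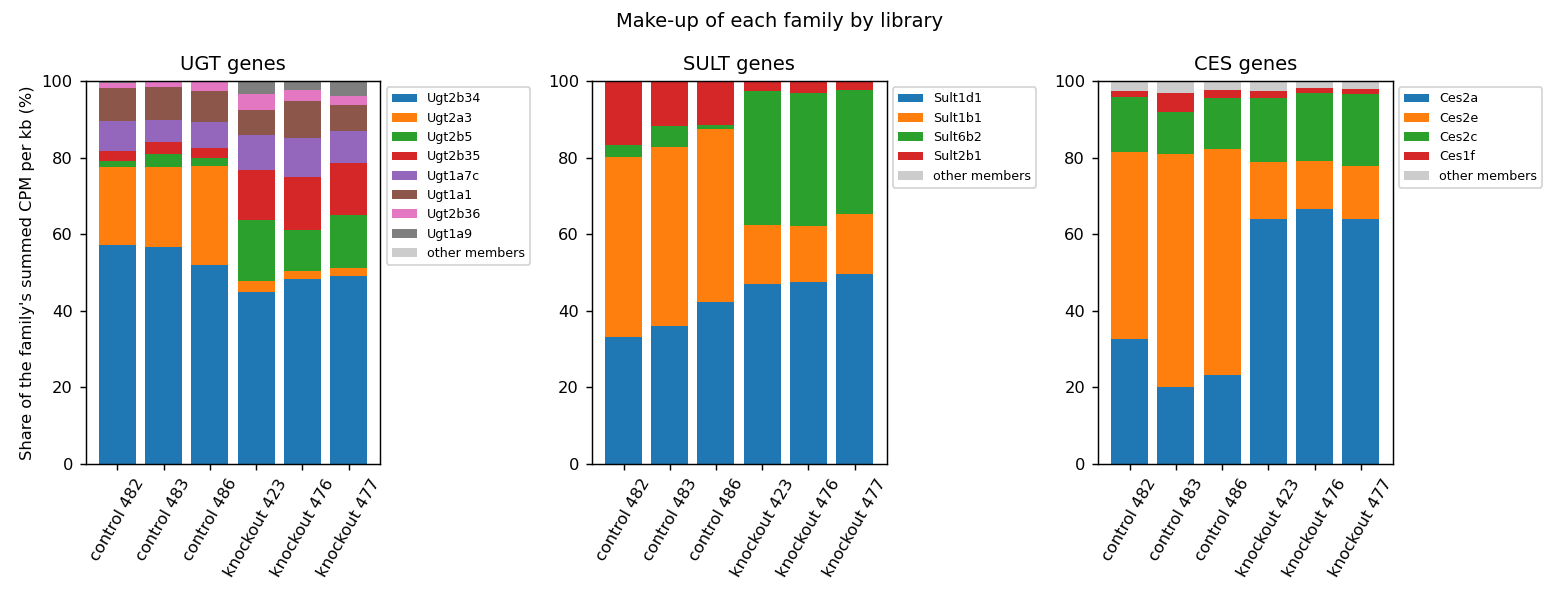
Share (y axis, percent) of each gene in its family's summed TMM-scaled CPM per kilobase of exon, 1 stacked bar per library, for UGT, SULT and CES genes. Ces2a and Sult6b2 take a larger part of every knockout bar than of any control bar, and Ugt2a3 and Ces2e a smaller one.

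Gene order showed that neighbours within a cluster did not move as a block. In the cluster on chromosome 5, which spans 702 kb and holds both Ugt2 and Sult1 genes, Ugt2a3 fell while Ugt2b35, Ugt2b36 and Ugt2b5 on one side and Sult1d1 on the other rose, and Ugt2b34 and Sult1b1 did not pass. On chromosome 8 the first 3 genes of the Ces2 cluster rose, and the tested genes from Ces2e to Ces3b downstream did not pass. In the Ces1 cluster Ces1c and Ces1d, which are neighbours, fell, and Ces1f and Ces1g, the next tested genes after Ces1e, rose. Summed by locus the Ces2 genes rose (log2 fold change 2.07, adjusted p = 0.00099), the Ugt2 genes did not pass (0.72, adjusted p = 0.071) and nor did the Ces3 genes (0.43, adjusted p = 0.46). The Ces1 sum rose (1.10, adjusted p = 0.035), but not without control 482, control 486, knockout 423 or knockout 477 (adjusted p from 0.075 to 0.093), nor with library-size scaling (0.68, adjusted p = 0.12).

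**Figure D4:**
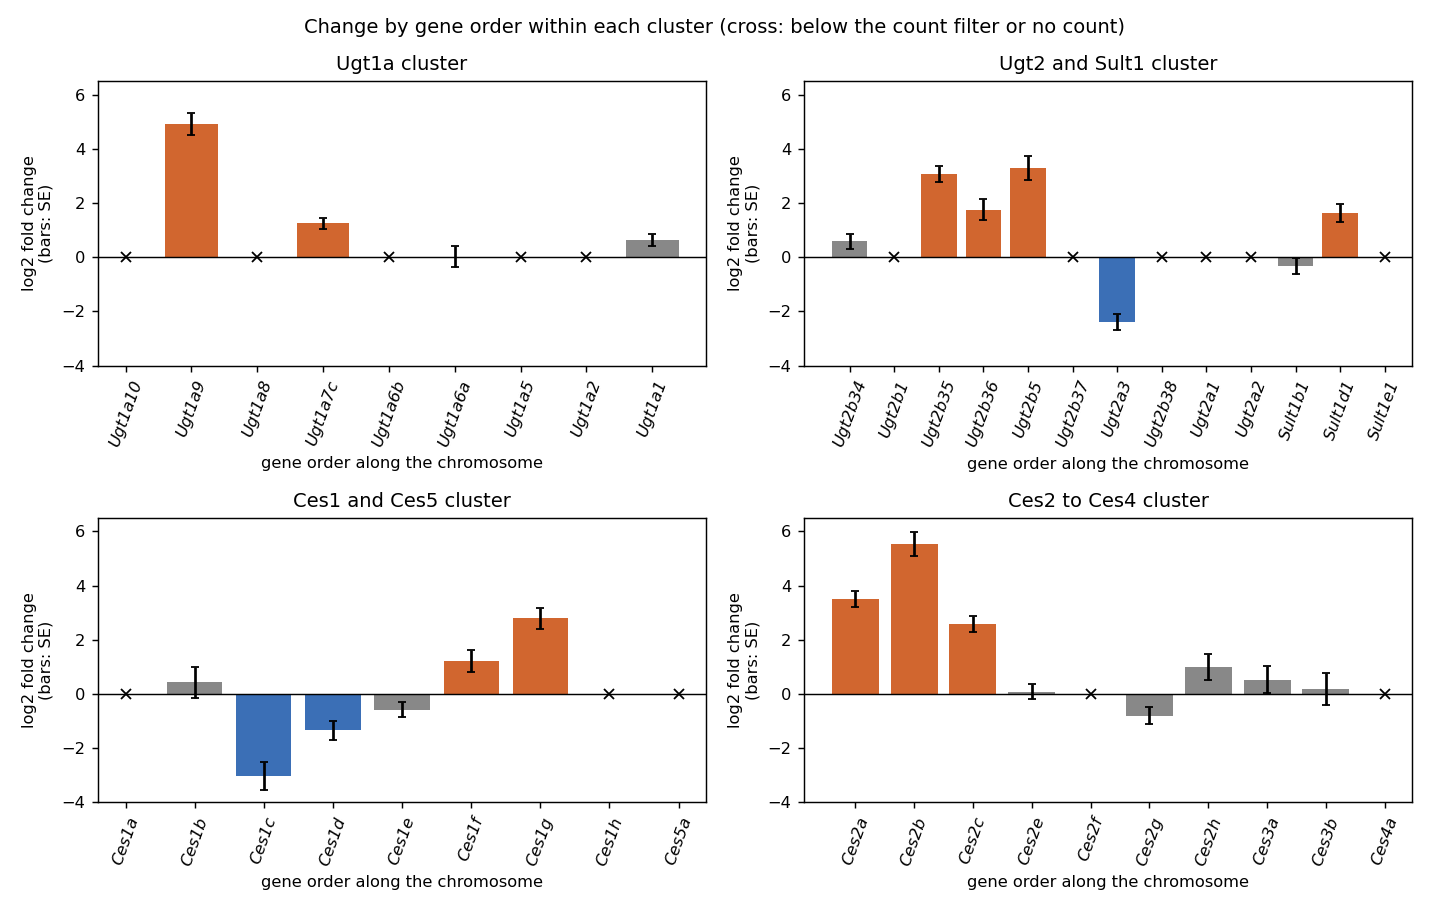
Log2 fold change (y axis, knockout minus control, bars of 1 SE) of the genes of 4 clusters in their order along the chromosome; orange is higher, blue lower, grey not past the threshold, and a cross marks a gene below the count filter or without a count. The nearest tested genes beside Ugt2a3 (-2.40) are Ugt2b5, which rose, and Sult1b1, which did not pass. The 3 Ces2 genes that rose lie side by side.

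Several genes that supply UDP-glucuronic acid were higher in the knockout. Of 9 tested genes listed for its supply, use or transport, 4 rose and 1 fell (55.6% called, against 35.6% of all genes). Ugdh, the dehydrogenase that makes UDP-glucuronic acid, stood at 325, 434 and 331 CPM in the controls and at 953, 1121 and 1131 CPM in the knockouts (log2 fold change 1.56, SE 0.24, adjusted p = 0.0015). Ugp2, which makes UDP-glucose before it, rose by 1.60 on the log2 scale, and the phosphoglucomutase gene Pgm1 by 2.16. Uxs1, which converts UDP-glucuronic acid to UDP-xylose, rose as well (1.48). The hexokinase gene Hk1 fell (-1.03, adjusted p = 0.030), a call lost without control 482, control 483, knockout 423 or knockout 477. The Hk1 call was also lost in the test against a 1.5-fold change and with the exon length and GC trend removed.

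Genes of PAPS and sulfate supply were mixed. Of 12 tested, 2 rose and 4 fell (50% called, against 35.6% of all genes). Papss1, a PAPS synthase, stood at 66.7, 64.0 and 72.7 CPM in the controls and at 24.3, 22.8 and 17.1 CPM in the knockouts (log2 fold change -1.66, SE 0.20, adjusted p = 0.00048). The other synthase, Papss2, stood at 261, 577 and 201 CPM in the controls and at 641, 659 and 689 CPM in the knockouts and did not pass (0.94, adjusted p = 0.071); control 483 was again the highest control. Suox, the sulfite oxidase that makes sulfate, fell (-2.52), as did the sulfate transporter genes Slc26a2 (-1.36) and Slc13a1 (-1.23). The Golgi PAPS transporter genes Slc35b2 (1.27) and Slc35b3 (1.02) rose. With library-size scaling 7 of the 12 fell.

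Enzymes that remove conjugates also went both ways, with 2 higher and 3 lower of 9 tested (55.6% called, against 35.6% of all genes). Gusb, the lysosomal beta-glucuronidase, went from 11.1, 12.1 and 12.3 CPM in the controls to 48.4, 58.0 and 64.4 CPM in the knockouts (log2 fold change 2.27, SE 0.20, adjusted p = 8.5e-05), and the arylsulfatase gene Arsg rose (2.20). Arsa (-1.58) and Arsb (-1.36), lysosomal sulfatases, and Ids (-1.01), iduronate sulfatase, fell. Of 10 genes for export of conjugates 3 rose and 1 fell (40% called, near the share of all genes). Abcc4, a basolateral exporter, was at 0.332 to 0.574 CPM in the controls and at 2.86 to 5.98 CPM in the knockouts (3.37). Abcc3 (0.73) and Slc51b (1.07) rose too, and Abcc6 fell (-2.02). The apical exporters did not pass: Abcc2 was at 333 to 604 and 404 to 681 CPM (-0.01) and Abcg2 at 124 to 216 and 173 to 283 CPM (0.38). Without knockout 477 only 1 exporter gene rose, and without control 486 2 fell.

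Other hydrolases, 19 tested, had 5 higher and 3 lower (42.1% called, against 35.6% of all genes). In the 3 lists that follow, 23.1%, 33.3% and 50% of the tested genes were called. Ephx1, microsomal epoxide hydrolase, rose (log2 fold change 2.49), as did Esd, S-formylglutathione hydrolase (2.18), Lipa, lysosomal acid lipase (1.38), and Pnpla2, adipose triglyceride lipase (1.19). Lipe, hormone-sensitive lipase (-1.13), the sialate esterase gene Siae (-0.84) and the cholinesterase gene Bche (164 to 206 CPM in the controls, 67.3 to 105 CPM in the knockouts) fell. Among 13 sulfotransferases outside the cytosolic family none rose and 3 fell: Ndst2 (-1.30), Gal3st1 (-0.56) and Chst8, with 69 control counts and 0 knockout counts, at least 13.5-fold lower against a floor of 3 counts over the group. Of 3 other glycosyltransferases tested, Ugcg, glucosylceramide synthase, fell (-0.79), while Uggt1 (-0.41) and B3gat3 (-0.06) did not pass. The Ugcg call was lost without control 482, control 483, knockout 423 or knockout 477. That call was also lost in the test against a 1.5-fold change and with the exon length and GC trend removed. Uggt2, with 17 control and 41 knockout counts, was below the filter, and was tested and called higher without control 482 or knockout 423. Of 8 other conjugating enzymes 3 rose and 1 fell: Glyat (2.83), Gnmt (2.17), Nat2 (0.77) and the arsenite methyltransferase gene As3mt (-1.31). Only 1 of these enzymes was called higher without control 483, without knockout 477, or with the stricter count filter.

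Of 23 regulators and partners of drug metabolism, 4 rose and 5 fell, or 39.1% against 35.6% of all genes. Ppara, the receptor PPARα, went from 26.3, 24.8 and 19.0 CPM in the controls to 86.9, 108 and 107 CPM in the knockouts (log2 fold change 2.11, SE 0.21, adjusted p = 0.00018), and Nr1h4, the bile acid receptor FXR, rose by 2.42. Ahr, the dioxin receptor, fell from 17.3, 12.9 and 12.7 CPM to 3.51, 3.46 and 4.72 CPM (-1.88, SE 0.25, adjusted p = 0.00084), and Nr1h3, the oxysterol receptor LXRα, by 1.87 on the log2 scale. The receptor genes of PXR (Nr1i2) and CAR (Nr1i3) did not pass, at 0.49 (adjusted p = 0.091) and -0.09, nor did Nfe2l2 (NRF2) at 0.32, Keap1 at -0.03 or Hnf4a at -0.19. With library-size scaling 9 regulators fell.

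Levels of cell type markers differed between the genotypes, and the part of this in the results above was not tested. In bulk samples fewer cells of a type and less RNA per cell cannot be told apart. The summed CPM of 10 villus enterocyte markers was 37813 to 53620 in the controls and 37370 to 70912 in the knockouts (2 higher, 4 lower). Tuft cell markers (7 of 7 lower) summed to 74.4 to 239 and 1.55 to 8.21 CPM, Paneth cell markers (5 of 7 lower) to 1029 to 4943 and 725 to 1205 CPM, and erythrocyte genes (5 of 5 higher) to 7.95 to 22.2 and 35.5 to 543 CPM. Goblet markers had 3 higher and 3 lower of 7, at 8090 to 11678 and 8499 to 8855 CPM, and leukocyte markers 2 lower of 8, at 98.4 to 366 and 42.2 to 147 CPM. Of 8 duodenum and jejunum enterocyte markers 3 were higher and 1 lower, at 5762 to 8078 and 14929 to 21790 CPM, of 8 ileum markers 2 higher and 2 lower, at 2649 to 3394 and 4502 to 6484 CPM, and of 5 tested colonocyte markers 1 higher and 2 lower, at 313 to 444 and 33.9 to 48.5 CPM. The largest part of the duodenum and jejunum sum was Fabp1 (means of 3597 and 15825 CPM), while Lct went from 2191 to 60.3 CPM. Muc13 (1630 and 4951 CPM) was the largest part of the ileum sum, in which Mep1a went from 202 to 5.51 CPM. Car4 (318 and 4.69 CPM) made up most of the colonocyte sum in the controls, and Car1 was at 0 in all libraries. Of 8 tested crypt and proliferation markers 1 was higher and 1 lower, at 93.0 to 185 and 160 to 377 CPM. Of 8 hepatocyte markers, at 103 to 172 and 191 to 361 CPM in sum, 4 had enough counts for the test and Apoa2 rose. Most of that sum was Cps1, which enterocytes also express, and Alb averaged 0.139 and 0.620 CPM. Pancreatic acinar markers summed to 7.27 to 14.4 and 32.2 to 47.6 CPM, nearly all Cela1, and kidney markers to at most 0.173 CPM. The 20 most abundant genes took 12.8% to 15.9% of counts in the controls and 22.3% to 29.1% in the knockouts.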

How the data were processed

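The deposited count table holds whole-number counts per gene, which the authors made with tools that the submitters' processing notes name without roles or order: STAR 2.7.9a, fastp 0.21.0, DESeq2 1.23.10, featureCounts (Subread 1.6.2), bcl2fastq and FastQC 0.11.7, on mm10. Neither annotation nor strand setting is given in the sources used here. The authors also deposited variance-stabilised values on a log2 scale, used only in 1 alternative.

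Rows were matched to GENCODE M21 for symbols, gene types, exon lengths and coordinates (55190 of 55450; the rest took at most 0.00294% of a library's counts). Counts were tested with edgeR 4.0.16 (quasi-likelihood test, filterByExpr, TMM, no covariate; 15028 genes; R 4.3.3), with Benjamini-Hochberg adjustment over all of them and a threshold of 0.05. The code was tested on simulated data. Levels are TMM-scaled CPM, and per-kilobase values divide by exon length. Alternatives used DESeq2 1.42.0, limma 3.58.1, other scalings and filters, a 1.5-fold test, removal of length and GC trends, and each library left out.

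Every tested member is named with at least its log2 fold change. Full values are given for the 8 called members with the smallest adjusted p, for the most abundant of each subfamily and for others that share a result, and each pathway list names its 4 tested genes of smallest adjusted p or fewer, besides a few chosen after their values were seen. Members and lists were chosen with earlier results of these data known. The pseudogene Ces2d-ps (82 counts) was left out. The second targeted gene is not reported here. With 1 library per mouse, libraries of 1 genotype differed by far more than counting noise (chi-square at least 71.3 times its degrees of freedom).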

Additional observations from a re-analysis of the deposited data

How the results depend on the processing

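No paired analysis was possible because no animal number occurs in both genotypes. Of 17 called members, 15 passed in every alternative run and none changed sign; the exceptions were Ces1d, lost only in the 1.5-fold test, and Ces1f. With library-size scaling 1133 of all genes were higher and 4554 lower (2596 and 2752 in the reported fit), 4 CES and 2 SULT genes were lower, and 35 genes of the pathway lists together were lower (22 reported). In the 1.5-fold test 1221 of all genes were higher and 1411 lower, 1 CES gene was lower and 14 list genes were lower. Leaving out 1 library gave 1510 to 2958 genes higher and 1748 to 2982 lower, the lowest counts being without control 482 (1510 higher) and knockout 477 (1748 lower), and 1555 were higher without control 483. CES genes higher and lower then ranged over 4 to 5 and 2 to 3, and SULT and UGT counts stayed at 3 and 1 and at 5 and 1.

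Sign changes occurred only in members and sums that had not passed. With library-size scaling the log2 fold change was -0.038 for Ces1b, -0.36 for Ces2e, -0.33 for Ces3b, -0.41 for Ugt1a6a and -0.046 for the Ces3 sum. Leaving out 1 library put Ces2e between -0.10 (without control 482) and 0.25, with -0.08 without knockout 477. Ces3b was at -0.052 with limma-voom and ranged from -0.15 (without knockout 477) to 0.67 with 1 library left out. Ugt1a6a was at -0.0070 without a filter and ranged from -0.28 (without control 486) to 0.29, with -0.12 without knockout 423 and -0.05 without knockout 476. The cause was not tested for any of these. At levels near 1 CPM or below, as for Ces1b and Ces3b, the SE was 0.58 on the log2 scale, which limits the size of change that could be called.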
